A study of Mus musculus with 8 samples.

Results

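The IL-1 family and inflammasome genes described here were Il1a, Il1b, Il1rn, Il18, Nlrp3, Nlrc4, Pycard, Casp1, Casp4 and Gsdmd. They were picked by symbol from the deposited count table of 13786 protein-coding genes, and all 10 had a row in it. RNA was sequenced from CD11c-positive splenocytes of 8 untreated female mice at 7 weeks of age, 4 of the control strain C57BL/6 and 4 of the lupus-prone strain B6.SLE123. B6.SLE123 is a congenic line that carries lupus susceptibility intervals of New Zealand origin on a C57BL/6 background, so every other gene in those intervals is also of donor origin. The comparison asks how the strains differ in antigen-presenting cells before disease is overt. Total counts lay between 25761789 and 32931045 per mouse in C57BL/6 and between 25563070 and 37367094 in B6.SLE123. The 10 genes held between 67 and 5848 counts in each mouse.

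Interleukin-1α, interleukin-1β and interleukin-18 are related inflammatory cytokines. The interleukin-1 receptor antagonist encoded by Il1rn occupies the receptor of interleukin-1α and interleukin-1β without starting a signal. Interleukin-1β and interleukin-18 are made as inactive precursors. Inflammasomes are cytosolic complexes in which a sensor such as NLRP3 or NLRC4 recruits caspase-1, often through the adaptor ASC, and caspase-1 then cuts both precursors and gasdermin D, whose fragment forms pores in the plasma membrane. In myeloid cells the transcripts of several of these genes, Il1b and Nlrp3 among them, are known to be induced by microbial and cytokine signals. Counts of transcripts do not measure cleavage, release or pore formation.

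Il1a and Il1b lie close together on the minus strand of chromosome 2, from 129299610 to 129309972 and from 129364570 to 129371139 in mm10. Il1rn lies on the same chromosome from 24336853 to 24351494, and Il18 on chromosome 9 from 50554827 to 50581840. Casp1 and Casp4 are neighbours on the plus strand of chromosome 9, from 5298508 to 5307290 and from 5308828 to 5336783. Nlrp3 was counted on chromosome 11 from 59541568 to 59566956, Nlrc4 on chromosome 17 from 74425438 to 74459142, Pycard on chromosome 7 from 127989708 to 127993867 and Gsdmd on chromosome 15 from 75862327 to 75867408. Other annotated genes overlap 5 of the 10: Il1a overlaps Gm14023, Il1b overlaps Il1bos, Il18 overlaps Bco2 and Tex12, and Pycard overlaps Gm45205, each on the other strand, while Nlrc4 overlaps CT033749.1 on its own strand. The library kit keeps the strand, but whether counting used it is not given in the sources used here, so reads of these 5 genes are uncertain where the annotations meet.

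The 250 bases upstream of the start of the cytokine genes with the largest differences, Il1a, Il18 and Il1b, were read from RefSeq on GRCm38.p6, the assembly of which mm10 is a copy, together with the Nlrp3 window that held the most PU.1 boxes, since the study concerns PU.1. They are written 5′ to 3′ on the strand of the gene, and capitals mark matches to GAGGAA, a core of the site bound by the myeloid factor PU.1, or to TGANTCA, the site of AP-1, on either strand. The Il1a window is chr2:129309973-129310222 on the minus strand, that of Il1b is chr2:129371140-129371389 on the minus strand, that of Il18 is chr9:50554450-50554699 on the plus strand and that of Nlrp3 is chr11:59542436-59542685 on the plus strand, upstream of a start that lies inside the annotated gene.
Il1a: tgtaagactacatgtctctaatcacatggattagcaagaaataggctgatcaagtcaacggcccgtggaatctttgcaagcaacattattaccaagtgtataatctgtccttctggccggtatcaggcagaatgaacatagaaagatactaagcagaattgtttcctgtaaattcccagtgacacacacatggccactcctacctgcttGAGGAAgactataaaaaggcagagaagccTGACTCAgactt
Il1b: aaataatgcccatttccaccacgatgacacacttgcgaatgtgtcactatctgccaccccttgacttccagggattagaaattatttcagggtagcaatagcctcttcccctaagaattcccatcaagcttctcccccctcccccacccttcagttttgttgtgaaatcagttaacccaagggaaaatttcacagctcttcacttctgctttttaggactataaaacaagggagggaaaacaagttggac
Il18: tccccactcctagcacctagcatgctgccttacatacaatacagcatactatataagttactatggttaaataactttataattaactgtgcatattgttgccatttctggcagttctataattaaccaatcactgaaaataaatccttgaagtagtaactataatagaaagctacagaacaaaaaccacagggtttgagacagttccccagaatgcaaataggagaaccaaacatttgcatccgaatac
Nlrp3: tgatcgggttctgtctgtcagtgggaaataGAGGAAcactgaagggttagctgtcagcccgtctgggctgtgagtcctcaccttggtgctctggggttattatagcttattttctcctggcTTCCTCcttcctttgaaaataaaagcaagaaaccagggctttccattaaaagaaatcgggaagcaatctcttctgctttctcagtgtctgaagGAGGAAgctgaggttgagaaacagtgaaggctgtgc

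In Il1a the PU.1 box began 41 bases before the start and the AP-1 site 12 bases before it, and these matches did not overlap each other. The Nlrp3 window shown held 3 PU.1 boxes, whereas the Nlrp3 window at the start of the annotated gene, not shown, held 0. The windows of Il1b and Il18 held neither motif. Over the RefSeq windows of 300 bases, which run from 250 bases before to 50 bases after a start, GAGGAA stood in 4 of 13 windows of the members (Il1a, Nlrp3, Pycard and Casp1) and in 28.3% of 32851 windows of all genes. TGANTCA stood in 2 of 13, of Il1a and Il1rn, against 7.81% of all windows. An NF-kB site, searched as GGG, then 2 bases of any kind, then TTTCC, stood in 4 of 13, belonging to Il1rn and Casp4, against 1.63%, and an interferon-response pair, GAAA repeated after 2 bases of any kind, stood in 0 of 13 against 3.44%. All 4 motifs were searched on both strands, and no match of one motif overlapped a match of another in these windows. Windows of 1 gene can share bases. Both Casp4 windows hold the same NF-kB sites, and the Il1rn matches are 1 site seen in 2 overlapping windows. Counted by gene, the NF-kB site stood in 2 of 9 members, and the share of all genes counted in this way was not computed. Gsdmd has no window in the table used. A match is a description of letters and not of binding. The DNA probe with which the study tested binding of PU.1 holds GAGGAA on neither strand. A window without this motif can therefore still hold a PU.1 site of that kind.

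Of the 10 members, 7 were lower in B6.SLE123 and 0 were higher, with an adjusted p below 0.05 (edgeR's quasi-likelihood test, Benjamini-Hochberg adjustment over 13786 genes). By the same rule 53.4% of all genes passed, 26.6% as lower and 26.7% as higher. The 7 were Il1a, Il18, Il1b, Casp1, Nlrp3, Nlrc4 and Casp4, and for the same 7 every B6.SLE123 mouse lay below every C57BL/6 mouse, a pattern that 24.5% of all genes showed in this direction and 24.4% in the other. More than 2-fold lower were 3 members, the cytokines Il1a, Il18 and Il1b, against 8.29% of all genes. The remaining 3, Il1rn, Pycard and Gsdmd, did not pass. The median log2 fold change, given throughout as B6.SLE123 over C57BL/6, was -0.40 over the members and -0.002 over all genes. Because bulk RNA was measured, fewer cells of a type and less RNA per cell cannot be told apart.

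**Figure D1:**
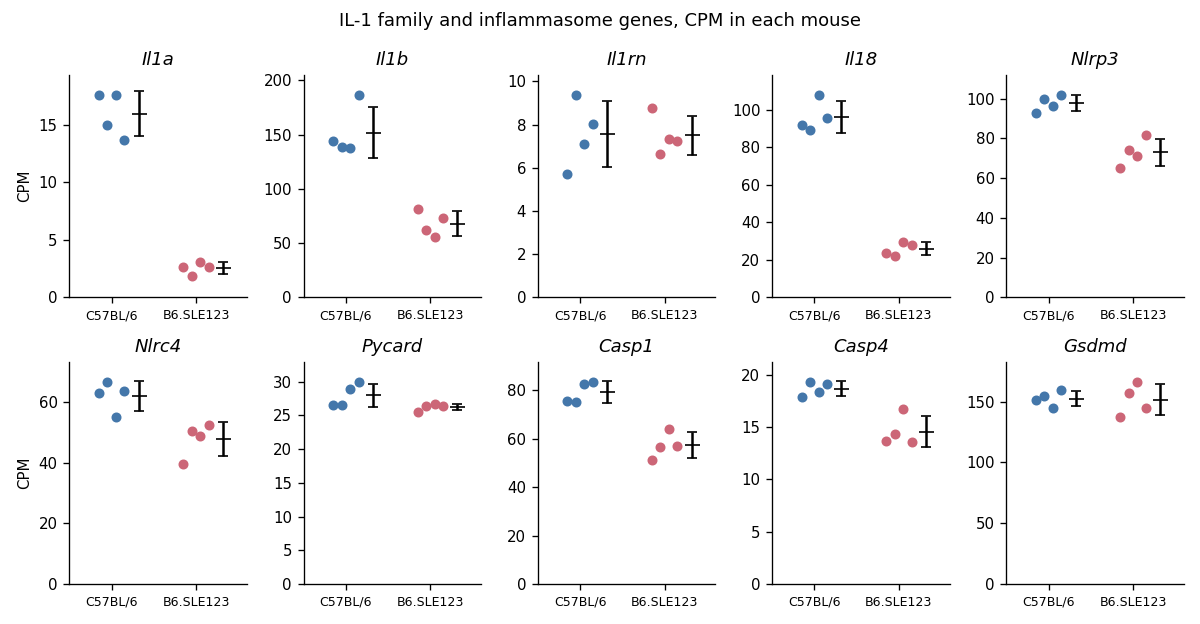
CPM, the depth-scaled count, of each of the 10 genes in 4 C57BL/6 mice (blue) and 4 B6.SLE123 mice (red), with the mean and SD in black. The strains do not overlap for Il1a, Il1b, Il18, Nlrp3, Nlrc4, Casp1 and Casp4, and they overlap for Il1rn, Pycard and Gsdmd.

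Levels are given as CPM, the count of a gene scaled to the size of its library by TMM. Among the agonist cytokines, Il1a, which encodes interleukin-1α, showed the largest difference. Its level was 17.6, 14.97, 17.6 and 13.7 CPM in C57BL/6 mice and 2.66, 1.85, 3.08 and 2.64 CPM in B6.SLE123 mice. All of the B6.SLE123 values were far below the lowest C57BL/6 value. The means were 15.95 ± 1.96 CPM (SD, n = 4) and 2.56 ± 0.51 CPM (SD, n = 4), so that Il1a was 6.26-fold lower in B6.SLE123 (log2 fold change -2.65, standard error 0.15, adjusted p = 3.97e-07 by edgeR). Only 1.47% of all genes had a lower log2 fold change.

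Il18 encodes the cytokine that, with interleukin-12, drives interferon-γ production by NK and T cells. It was measured at 91.9, 88.9, 108 and 95.8 CPM in C57BL/6 mice and at 23.8, 22.0, 29.4 and 28.1 CPM in B6.SLE123 mice. The strains were separated by a wide gap. Il18 fell to 26.8% of the C57BL/6 level, from 96.1 ± 8.30 CPM to 25.8 ± 3.50 CPM (SD, n = 4 each; log2 fold change -1.90, standard error 0.09, adjusted p = 1.97e-07 by edgeR). Bco2, a carotenoid oxygenase gene that overlaps Il18 on the other strand, was lower as well, at 17.5 ± 2.32 CPM against 8.91 ± 0.57 CPM (log2 fold change -0.98), while Tex12, the other overlapping gene, was at 0.38 against 0.44 CPM. Whether reads of Bco2 entered the Il18 count was not tested.

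Il1b, the gene of interleukin-1β, was the most abundant cytokine of the set by CPM. C57BL/6 mice had 144, 139, 137 and 187 CPM, and B6.SLE123 mice had 81.6, 62.2, 55.5 and 72.8 CPM. One C57BL/6 mouse, replicate 4, stood above the other three, which were close together, and the highest B6.SLE123 mouse was still well below them. The means of 152 ± 23.4 CPM and 68.0 ± 11.5 CPM (SD, n = 4 each) correspond to 44.8% of the C57BL/6 level (log2 fold change -1.16, standard error 0.13, adjusted p = 2.39e-05 by edgeR).

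The antagonist Il1rn did not pass the test. It had 5.71, 9.37, 7.11 and 8.04 CPM in C57BL/6 mice and 8.76, 6.64, 7.34 and 7.24 CPM in B6.SLE123 mice, and the ranges overlapped fully. Its log2 fold change was -0.01 with a 95% interval from -0.33 to 0.31 (adjusted p = 0.951 by edgeR), so that these data leave room for a difference of that size in either direction.

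**Figure D2:**
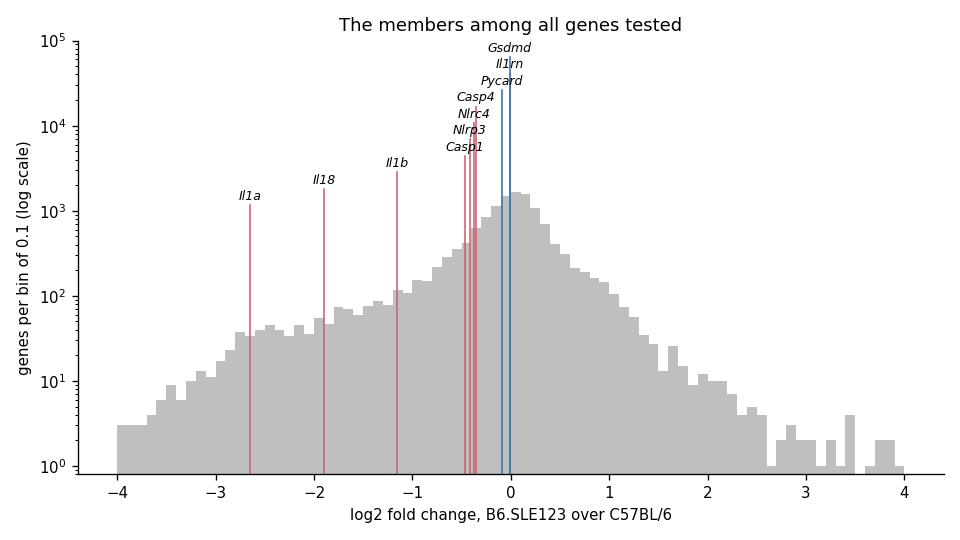
Histogram of the log2 fold change (B6.SLE123 over C57BL/6, horizontal axis, bins of 0.1) of all genes tested, on a log scale, with the 10 members as lines, red where the adjusted p was below 0.05 and blue where it was not (the height of a line only places its name); 53 genes lie beyond 4 in either direction and are not drawn. Il1a, Il18 and Il1b lie in the lower tail and Gsdmd and Il1rn at the centre.

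The balance of the transcripts of these cytokines was followed as a ratio within each mouse, a quantity that does not depend on how libraries are scaled. The log2 ratio of Il1rn to Il1b was -4.64, -3.88, -4.26 and -4.52 in C57BL/6 mice and -3.21, -3.21, -2.91 and -3.32 in B6.SLE123 mice. The Il1rn transcript was thus larger relative to that of Il1b in every B6.SLE123 mouse. On the CPM scale the Il1rn level was 0.0499 of the Il1b level in C57BL/6 and 0.112 of it in B6.SLE123. The log2 fold changes of -0.01 for Il1rn and -1.16 for Il1b place this difference in the fall of Il1b. The difference of 1.16 on the log2 scale had p = 0.0286 in an exact two-sided permutation test, the smallest that 4 mice against 4 allow, and 0.0429 after adjustment over the 3 ratios tested.

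The Il1a to Il1b ratio also differed between the strains. On the log2 scale it was -3.03, -3.21, -2.96 and -3.76 in C57BL/6 mice and -4.91, -5.02, -4.14 and -4.75 in B6.SLE123 mice, without overlap. It was lower by 1.47 in B6.SLE123 (difference -1.47; exact two-sided permutation test, p = 0.0286, adjusted p = 0.0429), so the transcripts of the 2 cytokines fell by unequal amounts, Il1a more than its neighbour Il1b. The Casp4 to Casp1 ratio was -2.08 ± 0.089 in C57BL/6 and -1.97 ± 0.071 in B6.SLE123 (SD of log2 ratios, n = 4 each). Its values overlapped, and the difference of 0.11 did not pass (exact two-sided permutation test, p = 0.114).

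**Figure D3:**
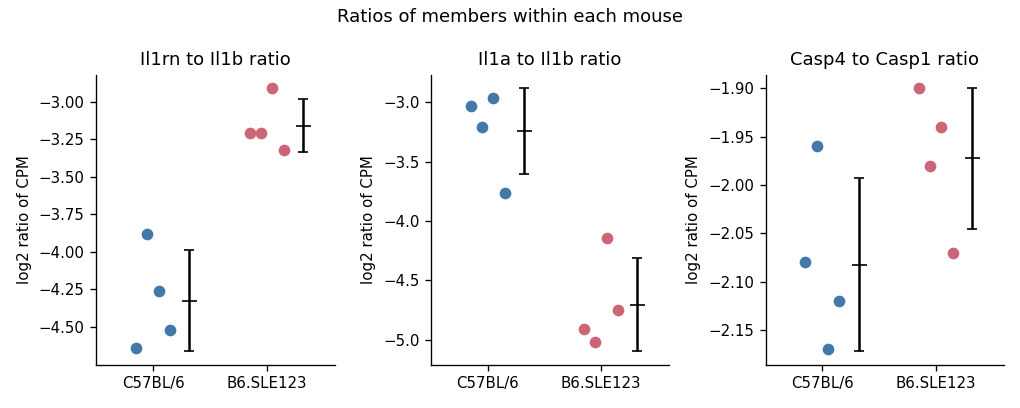
Log2 ratio of CPM (vertical axis, a different range in each panel) of Il1rn to Il1b, Il1a to Il1b and Casp4 to Casp1 in 4 C57BL/6 mice (blue) and 4 B6.SLE123 mice (red), with the mean and SD in black. The first ratio is higher and the second lower in every B6.SLE123 mouse, and the third overlaps between the strains.

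Both sensors fell, and neither of them by as much as 2-fold. NLRP3 responds to potassium efflux and many other disturbances of the cell. Nlrp3 was at 92.7, 99.9, 96.2 and 102 CPM in C57BL/6 mice and at 65.3, 74.3, 71.0 and 81.7 CPM in B6.SLE123 mice. Every B6.SLE123 mouse lay below the lowest C57BL/6 mouse. The level in B6.SLE123 was 74.8% of that in C57BL/6 (log2 fold change -0.42, standard error 0.06, adjusted p = 0.000268 by edgeR).

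NLRC4 is activated through NAIP proteins by bacterial flagellin and secretion system proteins. Nlrc4 was counted at 63.0, 66.7, 55.0 and 63.5 CPM in C57BL/6 mice and at 39.7, 50.4, 48.9 and 52.6 CPM in B6.SLE123 mice. The strains came close, with C57BL/6 replicate 3 only slightly above B6.SLE123 replicate 4. The difference came to -0.37 on the log2 scale (standard error 0.09, adjusted p = 0.00387 by edgeR), or 77.2% of the C57BL/6 level.

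Of the caspases, Casp1, which encodes the enzyme that cuts the cytokine precursors, had 75.6, 75.3, 82.6 and 83.5 CPM in C57BL/6 mice and 51.2, 56.7, 64.2 and 57.2 CPM in B6.SLE123 mice. Each C57BL/6 mouse was above each B6.SLE123 mouse. It fell to 72.3% (log2 fold change -0.47, standard error 0.07, adjusted p = 0.000168 by edgeR).

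Casp4 encodes mouse caspase-11, the receptor of cytosolic lipopolysaccharide in the non-canonical pathway. It was less abundant, at 17.8, 19.3, 18.3 and 19.1 CPM against 13.6, 14.4, 16.7 and 13.6 CPM. B6.SLE123 replicate 3 was nearest to the controls and still below them. It differed by -0.35 on the log2 scale (standard error 0.08, adjusted p = 0.00237 by edgeR), or 78.2% of the C57BL/6 level.

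The adaptor Pycard, whose product ASC joins sensors to caspase-1, was at 26.5, 26.6, 28.9 and 30.0 CPM in C57BL/6 mice and at 25.5, 26.5, 26.7 and 26.4 CPM in B6.SLE123 mice. The lupus-prone mice were close together, with a coefficient of variation of 1.91%, and lay within or just under the control range. The log2 fold change of -0.09 did not pass (95% interval -0.21 to 0.03, adjusted p = 0.178 by edgeR).

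Gsdmd, the gene of the pore-forming protein, was the most abundant member by CPM over both strains. Values of 151, 155, 145 and 160 CPM in C57BL/6 mice and of 138, 157, 166 and 145 CPM in B6.SLE123 mice overlapped on both sides. Its log2 fold change was -0.01 with a 95% interval from -0.14 to 0.12 (adjusted p = 0.908 by edgeR).

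Levels of different genes were compared as CPM per kilobase of exon, with exons joined over all annotated transcripts, which understates a gene whose long transcripts are rarely used. In C57BL/6 mice the order was Il18 (93.2 CPM per kilobase), Il1b (79.5), Gsdmd (64.1), Casp1 (52.9), Nlrp3 (24.1), Nlrc4 (12.9), Il1a (8.08), Pycard (7.37), Casp4 (5.03) and Il1rn (1.37). The mice overlapped between the neighbours Il18 and Il1b and between Il1a and Pycard, and between no other neighbours in this order. In B6.SLE123 mice Gsdmd came first (63.7 CPM per kilobase), followed by Casp1 (38.3), Il1b (35.7), Il18 (25.0), Nlrp3 (18.0), Nlrc4 (9.96), Pycard (6.91), Casp4 (3.93), Il1rn (1.35) and Il1a (1.30). There Casp1 overlapped Il1b and Il1rn overlapped Il1a. Il18 went from the first place to the fourth and Il1a from the seventh to the last, while Nlrp3 and Nlrc4 kept their places.

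The other genes of the pathway were read from a list of 52 ligands, receptors, sensors, effectors and signalling proteins, of which 45 were in the table. Of these, 20 passed as lower in B6.SLE123 and 4 as higher, and 21 did not pass, where 26.6% of all genes were lower and 26.7% were higher. Their median log2 fold change was -0.19. The 6 further ligands of the list and the sensor Nlrp6 were not analysed here.

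Receptors and decoys came to 9 genes, of which 4 were lower and 0 higher, where 26.6% of all genes were lower and 26.7% higher. Il1r1, the signalling receptor of both interleukin-1 cytokines, was at 9.50, 6.83, 7.38 and 8.51 CPM in C57BL/6 mice and at 2.34, 2.02, 2.93 and 2.36 CPM in B6.SLE123 mice, without overlap (log2 fold change -1.74, standard error 0.15, adjusted p = 3.78e-06 by edgeR). Il18bp, the soluble inhibitor of interleukin-18, fell together with its ligand, from 35.8 ± 2.54 CPM to 14.6 ± 2.57 CPM (SD, n = 4 each; log2 fold change -1.30, adjusted p = 3.05e-06 by edgeR), and it overlaps Numa1 on the other strand. Smaller falls were seen for Il1rl1, the interleukin-33 receptor (-0.88, adjusted p = 0.00696 by edgeR), and the shared chain Il1rap (-0.44, adjusted p = 0.00731 by edgeR). The decoy receptor Il1r2, the receptors Il1rl2, Il18r1 and Il18rap, and the inhibitory receptor Sigirr did not pass, with log2 fold changes between -0.44 and 0.23.

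Of 14 other sensors and their regulators, 7 were lower and 1 was higher, beside 26.6% and 26.7% of all genes. P2rx7, the ATP-gated channel upstream of NLRP3, fell from 80.4 ± 5.59 CPM to 45.1 ± 0.54 CPM (SD, n = 4 each; log2 fold change -0.83, adjusted p = 6.21e-07 by edgeR). Naip5, a flagellin receptor of NLRC4, fell by 0.55 on the log2 scale, Mefv, which encodes pyrin, by 0.53, and Txnip by 0.39, and none of these overlapped between the strains. Naip5 has close copies among the other Naip genes, so its reads are uncertain. Also lower, and named after their values were seen, were Naip2 (-0.34, adjusted p = 0.000126 by edgeR), Nlrp1b and Nlrp12, whose log2 fold change of -1.21 (adjusted p = 0.0446 by edgeR) was the lowest of these 14 but came from 0.3648 ± 0.1574 against 0.1498 ± 0.0793 CPM, with overlap of the strains. The single sensor that was higher, likewise named afterwards, was Nlrp1a (log2 fold change 0.38, adjusted p = 0.00566 by edgeR), which has a close copy in Nlrp1b (-0.28, adjusted p = 0.0409 by edgeR). The DNA sensor Aim2 (-0.15, adjusted p = 0.103 by edgeR) and the NLRP3 partner Nek7 (0.06) did not pass.

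All 4 other effectors were lower, a direction in which 26.6% of all genes passed. Ninj1, whose product ruptures the plasma membrane after pore formation, had 86.3, 73.7, 93.7 and 83.9 CPM in C57BL/6 mice and 27.3, 18.7, 28.7 and 29.2 CPM in B6.SLE123 mice (log2 fold change -1.71, standard error 0.13, adjusted p = 1.62e-06 by edgeR). Gsdme, a gasdermin cut by caspase-3, was at 33.8 ± 1.76 CPM against 14.9 ± 1.18 CPM (SD, n = 4 each; log2 fold change -1.18, adjusted p = 4.61e-07 by edgeR). The intervals of these genes did not reach that of Gsdmd. Casp12, next in the caspase cluster and of low level, had a log2 fold change of -2.13 (1.98 ± 0.26 against 0.44 ± 0.27 CPM), and Casp8 of -0.27 (adjusted p = 0.00041 by edgeR).

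In the signalling chain from the receptor to NF-kB, 18 genes were tested, of which 5 were lower, 3 were higher and 10 did not pass. Of all genes 53.4% passed, 26.6% as lower and 26.7% as higher. Irak3, an inhibitory kinase of the family, was lower by the most (log2 fold change -1.20, 13.4 ± 1.41 against 5.85 ± 1.42 CPM, adjusted p = 7.96e-05 by edgeR), followed by Nfkbiz, an inducible cofactor of NF-kB (-0.57), and Tab1, an adaptor of the kinase TAK1 (-0.36). Nfkb1, a subunit of NF-kB itself, was higher (0.32, adjusted p = 0.000448 by edgeR). The others that passed, named after their values were seen, were Irak4 (-0.19) and Irak2 (-0.14) among the lower genes and Tnfaip3 (0.29) and Map3k7 (0.17) among the higher. The adaptor Myd88 (0.05) and the kinase Irak1 (-0.002) did not pass.

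**Figure D4:**
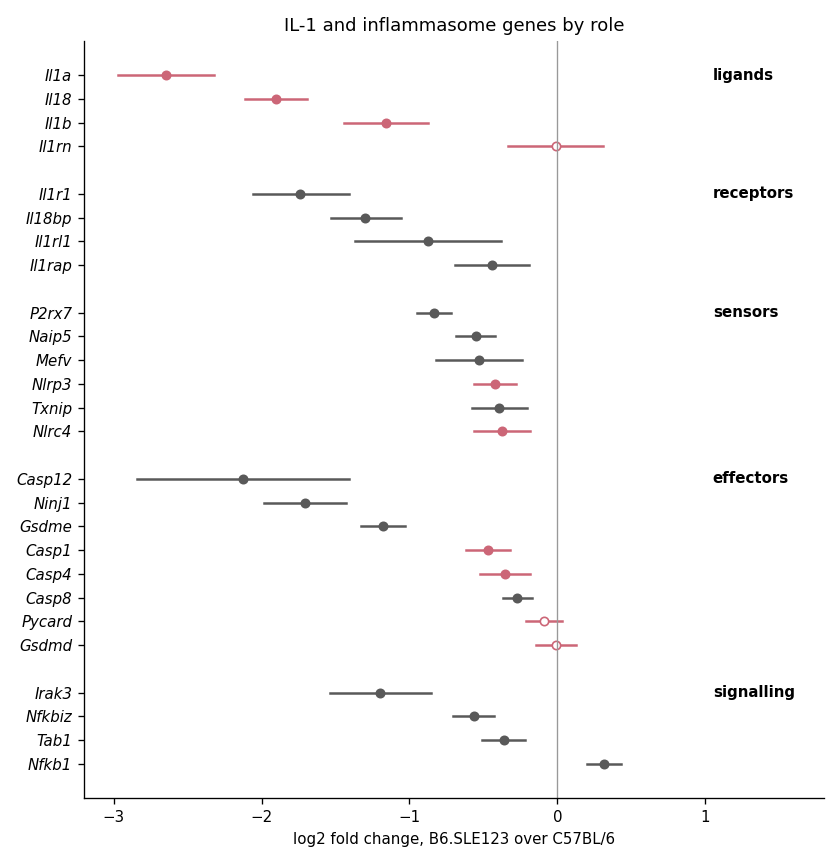
Log2 fold change (B6.SLE123 over C57BL/6) with its 95% interval for the 10 members (red) and the other pathway genes named by the rule of the methods (grey), grouped by role; filled points passed an adjusted p below 0.05. Il1a, Casp12 and Il18 lie farthest to the left, Il1rn, Pycard and Gsdmd include 0, and Nfkb1 alone lies to the right.

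Markers of several cell types also differed between the preparations. The counts of marker genes in this and the next paragraph stand beside 26.6% of all genes that were lower and 26.7% that were higher. The dendritic cell label was carried by its markers in both strains, with Itgax, the CD11c gene, at 1330 ± 77.9 against 1540 ± 93.4 CPM (SD, n = 4 each), and Flt3, Zbtb46 and H2-Aa present in every mouse; all 7 genes of this list were higher in B6.SLE123. Every one of 12 marker genes of red pulp macrophages was lower, and their summed level ranged from 13400 to 17100 CPM in C57BL/6 mice and from 1890 to 3750 CPM in B6.SLE123 mice, with Vcam1 the most abundant (log2 fold change -2.45). Of 11 monocyte genes, 4 were lower and 0 higher, with sums of 869 to 956 CPM against 497 to 683 CPM. The lower ones were Treml4 (335 ± 40.2 against 161 ± 13.4 CPM), Nr4a1 (288 ± 30.7 against 157 ± 8.37 CPM), Fn1 and Vcan. Ly6c2, Ccr2, Cx3cr1 and Ace were among the 7 that did not pass. Of 11 neutrophil genes, 4 were lower and 3 higher, with sums of 132 to 146 CPM against 38.5 to 61.6 CPM. Csf3r (76.5 ± 2.64 against 25.2 ± 3.18 CPM) and Mmp9 (47.0 ± 6.63 against 10.6 ± 4.72 CPM) were the most abundant and weigh most in these sums. The higher genes were Ltf (0.575 against 1.92 CPM), Ngp (0.633 against 1.88 CPM) and Camp (0.154 against 0.513 CPM). The defining genes S100a8 and S100a9 were low in both strains and did not pass. They were at 2.97 and 4.41 CPM in C57BL/6 and at 2.51 and 3.76 CPM in B6.SLE123. Ly6g was not analysed here. None of the analysed genes of these 4 lists was at 0 in any mouse.

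Among the lists of dendritic cell subsets, 7 of 9 type 1 conventional dendritic cell genes were higher and 1 was lower, with sums of 3330 to 3810 CPM in C57BL/6 against 5000 to 6500 CPM in B6.SLE123. Of 8 type 2 genes, 2 were lower and 1 was higher, with a median log2 fold change of -0.05, while their sums of 2620 to 2810 CPM and 1790 to 2240 CPM did not overlap. Sirpa, the most abundant and so the gene that weighs most in these sums, was at 1780 ± 85.4 against 950 ± 101 CPM. The other lower gene was Cd209a, and the higher one was Dtx1. Of 7 plasmacytoid genes, 3 were lower and 1 was higher, and the sums overlapped, at 311 to 329 CPM and 255 to 315 CPM. B cell genes were lower in 7 of 8 cases, with sums of 506 to 603 CPM against 329 to 423 CPM, and all 7 erythroid genes in the table were lower, with sums of 63.4 to 259 CPM against 4.91 to 34.1 CPM. Hba-a2 was at 13.6 ± 5.82 CPM in C57BL/6 and at 0 in every B6.SLE123 mouse, whereas Hba-a1 was at 44.3 ± 26.1 against 9.63 ± 6.06 CPM. Why Hba-a2 was at 0 was not tested. Of 6 T cell genes 1 was lower, with sums of 16.9 to 27.6 CPM against 11.2 to 20.2 CPM, and the 7 NK cell genes did not pass (adjusted p from 0.115 to 0.889 by edgeR), with sums of 23.4 to 39.8 CPM against 18.2 to 38.4 CPM. The part of these cell types in the falls of Il1a, Il18, Il1b, Il1r1 and Ninj1 was not tested.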

How the data were processed

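CD11c-positive splenocytes of 4 C57BL/6 and 4 B6.SLE123 female mice were sequenced from a stranded mRNA library. After FastQC and adapter removal by cutadapt, the authors aligned reads to mm10 by STAR, and the deposited values are raw counts per gene from featureCounts; versions and the strand setting are not given in the sources used here. In every row the strain with more reads had a median of at least 5 counts. The deposited columns of the authors' DESeq2 comparison (fold changes, errors and p-values) were not used. Strains were taken from the sample names, because the genotype labels count upward from mouse to mouse. Mice of a strain differed by more than sampling noise (chi-square per degree of freedom 4.96 to 18.9), and each was kept as 1 replicate.

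Counts were scaled by TMM and compared by the quasi-likelihood F test of edgeR 4.0.16 (R 4.3.3) without a filter, with Benjamini-Hochberg adjustment over 13786 genes. The scripts were tested on simulated counts that held known changes. CPM are relative to the TMM-scaled total, log2 CPM used a prior count of 2, and intervals are 95% intervals of the fit. Ratios were compared by exact permutation of the mice. Exon lengths and overlaps came from GENCODE M21, in which 13663 genes had the coordinates of the table (Casp1 among the others). Promoters came from RefSeq (GRCm38.p6) and were matched by symbol for 9 of the 10 members.

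The members, pathway list and marker lists were chosen with earlier results of these data known. Besides the members, up to 4 pathway genes in each role were named by size of change among those with an adjusted p below 0.05, no overlap of the strains and at least 1 CPM in the higher strain. Alternatives were relative log expression factors, edgeR's filterByExpr, DESeq2 1.42.0, limma-voom (limma 3.58.1), the replicate number as a block, a 2-fold threshold, another prior count, and each mouse left out in turn.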

Additional observations from a re-analysis of the deposited data

Results flagged for a closer look

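Over the named genes, the 3 ratios and the summed marker lists, Dixon's test set 1 mouse apart from the rest of its strain in 3 of 80 cases at the 95% level, where chance gives about 1 in 20, or 4 of 80. C57BL/6 replicate 4 had 7.54 log2 CPM of Il1b against a strain median of 7.14, and without it the log2 fold change of Il1b was -1.05 in place of -1.16. B6.SLE123 replicate 3 had 4.20 log2 CPM of Il18bp against a median of 3.76, and without it the log2 fold change of Il18bp was -1.43 in place of -1.30. B6.SLE123 replicate 2 had 4.23 log2 CPM of Ninj1 against a median of 4.81, and without it the log2 fold change of Ninj1 was -1.58 in place of -1.71. Each of these genes stayed lower in B6.SLE123 at an adjusted p below 0.05 in all 8 fits that left out a mouse.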

How the results depend on the processing

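Over 15 alternative settings, 412 of 422 values did not change direction or cross the threshold (counts: moved by less than 1.5 times). The same 7 members passed in each of the 13 other fits across all genes. With more than a 2-fold change required as well, 3 members and 10 of the pathway genes (members included) passed in place of 7 and 31, since a stricter rule was applied. Across the 8 fits or values that each left out a mouse, 7 members passed, the pathway genes that passed numbered 28 to 33, the median log2 fold change was -0.454 to -0.349 for the members and -0.306 to -0.191 for the pathway genes, and the log2 ratio difference was 1.06 to 1.31 for Il1rn to Il1b, -1.65 to -1.36 for Il1a to Il1b and 0.0821 to 0.151 for Casp4 to Casp1. Among the fits that left out a mouse, directions reversed only for Il1rn, from -0.122 to 0.104, and Gsdmd, from -0.0573 to 0.0307, neither of which passed in any of these fits: the reversed values were 0.104, 0.0108 and 0.0361 for Il1rn and 0.00334, 0.0307 and 0.00134 for Gsdmd.

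The replicate numbers did not pair the mice: the correlation of deviations of same-numbered mice was -0.0288 to 0.115, and 2 of 4 mice correlated best with their own number. With the replicate number as a block, 7183 genes passed in place of 7356, and the ratio differences of 1.16 and -1.47 had an adjusted p of 0.188 (exact sign-flip test of 4 pairs). The smallest p that this sign-flip test can give before adjustment is 0.125, so no ratio could have passed. Genes with fewer than 5 counts in the median mouse of both strains were not tested.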
